A study of Mus musculus with 6 samples.

Results

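The Hox genes of the HoxA, HoxB, HoxC and HoxD clusters were examined for H3K27me3, H3K9me2 and H3K9me3 by ChIP-seq, a method that sequences the DNA bound to a histone carrying the mark. The 38 members analysed here were chosen by name, and their bounds came from the GENCODE annotation of the mouse genome NCBIM37, which held 22238 protein-coding genes in the tiled chromosomes. The HoxA span held 10 members at chr6:52112350-52210874, and the HoxB span held 10 at chr11:96055630-96229570. The HoxC span held 9 at chr15:102751534-102867274, and the HoxD span held 9 at chr2:74506367-74603200. The cells were mouse embryonic stem cells (ESCs) without Dicer, the enzyme that cuts microRNAs and siRNAs from double-stranded RNA. In the Dicer KO both Dnmt1 alleles were loxP-flanked and intact, and in the Dicer KO/Dnmt1 cKO they were deleted as well by tamoxifen-induced Cre. Both groups thus lacked Dicer, and no library with intact Dicer was used here. According to the methods, Dicer KO cells came from CRISPR/Cas9-targeted C57BL/6 ESCs grown from single colonies in serum with LIF, with or without feeders, whereas the labels give the strain E14. The labels give neither the number of days after Dnmt1 deletion nor the number of clones. There was 1 library per mark and genotype, 6 in all, so no difference between genotypes had a replicate check, no test was made, and every interval below is a 95% interval for counting error only.

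Hox genes encode homeodomain transcription factors that give cells their position along the head-to-tail axis. Genes at the 3′ end of a cluster act in the hindbrain and neck and genes at the 5′ end in the tail, limbs and urogenital tract. Copies of a gene that share a number in different clusters are called paralogs. In ESCs the clusters are known to be silent and covered by H3K27me3, the mark placed by the Polycomb repressive complex PRC2 mostly at CpG-rich DNA. H3K9me2 and H3K9me3 are marks of other kinds of silent chromatin, and DNMT1 is the enzyme that copies DNA methylation to the new strand at replication.

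Promoter sequence was taken from RefSeq (GRCm38.p6), which matched 22 of the 38 members with 24 promoters, and each was found by an exact match on NCBIM37. The 250 bases before the start site held no annotated exon in 9 of these promoters, belonging to 8 members. Of these, the highest and lowest pairs by H3K27me3 in the 2 kb tile of the start site are shown, 5′ to 3′ on the gene's strand, with every CG dinucleotide in capitals.
Hoxd13 upstream: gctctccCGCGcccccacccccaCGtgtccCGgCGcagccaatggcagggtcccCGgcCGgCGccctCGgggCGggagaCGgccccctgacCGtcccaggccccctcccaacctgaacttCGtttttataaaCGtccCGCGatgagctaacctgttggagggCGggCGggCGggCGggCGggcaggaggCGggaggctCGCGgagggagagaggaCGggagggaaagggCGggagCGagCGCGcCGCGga
Hoxb8 upstream: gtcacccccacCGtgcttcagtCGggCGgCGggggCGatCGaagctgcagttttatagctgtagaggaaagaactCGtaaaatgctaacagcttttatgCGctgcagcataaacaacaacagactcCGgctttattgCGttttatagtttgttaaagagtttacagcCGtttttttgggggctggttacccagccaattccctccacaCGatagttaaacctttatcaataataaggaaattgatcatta
Hoxd8 upstream: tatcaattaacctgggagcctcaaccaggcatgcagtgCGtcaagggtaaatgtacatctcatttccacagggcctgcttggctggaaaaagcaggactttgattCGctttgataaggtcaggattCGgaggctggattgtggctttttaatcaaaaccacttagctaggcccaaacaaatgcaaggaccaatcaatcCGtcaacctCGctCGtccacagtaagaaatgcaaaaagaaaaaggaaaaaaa
Hoxa13 upstream: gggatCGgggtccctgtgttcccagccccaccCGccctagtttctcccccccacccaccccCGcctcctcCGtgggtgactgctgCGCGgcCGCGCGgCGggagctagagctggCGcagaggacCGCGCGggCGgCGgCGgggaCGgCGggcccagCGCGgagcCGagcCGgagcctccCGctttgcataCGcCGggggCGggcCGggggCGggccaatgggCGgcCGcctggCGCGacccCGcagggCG
The Hoxd13 stretch lay at chr2:74506032-74506281 on the plus strand, and that of Hoxb8 at chr11:96142969-96143218 on the plus strand. The Hoxd8 stretch lay at chr2:74542422-74542671 on the plus strand, and that of Hoxa13 at chr6:52210875-52211124 on the minus strand. The Hoxd13 and Hoxa13 stretches held 31 and 35 CG dinucleotides, a number reached by 5.19% and 2.97% of the 32851 promoters in the table, and the Hoxb8 and Hoxd8 stretches held 12 and 6. The 24 Hox promoters had a median of 12.5 and all promoters a median of 6. Genes with like CG numbers stood at opposite ends of the range of H3K27me3. The start-site tile of Hoxd13 held 11.2 times the genome's mean of H3K27me3 reads per tile in the Dicer KO (interval 9.79 to 12.7), and the tile of Hoxa13, its paralog, held 1.32 times (0.870 to 1.92). Over the 24 promoters the CG number and the H3K27me3 level of the tile had a Pearson r of 0.026 and a Spearman rho of -0.010, given as a description, since Hoxa10 and Hoxd11 each had 2 of these promoters. The 250 bases do not stand for the 2 kb tile, since the Hoxd8 tile held 215 CG dinucleotides. The tiles of Hoxd13, Hoxb8 and Hoxa13 held 134, 57 and 189. Over the 246 tiles of the 4 spans, H3K27me3 in the Dicer KO and GC content had a Pearson r of 0.29.

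The clusters also encode microRNAs of the miR-10 and miR-196 families, which are known to act on Hox messenger RNAs and which need Dicer to mature. Their mature RNAs are shown with the seed, bases 2 to 8, in capitals.
miR-10a-5p: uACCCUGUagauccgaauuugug
miR-10b-5p: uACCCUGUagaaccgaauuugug
miR-196a-5p: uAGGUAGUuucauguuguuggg
miR-196b-5p: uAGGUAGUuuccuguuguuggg
Both miR-10 RNAs shared the seed ACCCUGU, and the miR-196 RNAs shared AGGUAGU. miR-196a is encoded in HoxB (Mir196a-1) and in HoxC (Mir196a-2). The tile that held Mir196a-2 had an H3K27me3 level of 7.87 in the Dicer KO, and 5.93 was its level in the Dicer KO/Dnmt1 cKO, whereas that of Mir196a-1, between Hoxb13 and Hoxb9, had 0.831 and 0.998. Mir10a stood at 4.20 and 3.24, Mir10b at 3.23 and 3.12, Mir196b at 3.86 and 2.62, and Mir615 at 5.96 and 4.18, in the same order of genotypes. In 3 of the 5 microRNA tiles with at least 50 reads the interval of the change between genotypes lay wholly below 0. Among protein-coding genes with as many reads the share was 10.1%. These 5 tiles overlap Hox genes, so their reads also enter the Hox values below. Hotair, Hottip and Hotairm1 were not found by name in the annotation and were not analysed here.

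Reads were recovered from deposited log2 values of 2 kb tiles. The totals ranged from 16834940 reads (H3K9me2, Dicer KO) to 27162045 (H3K27me3, Dicer KO), and the median tile held 13 to 18 reads. A level below is the reads per tile of a gene or region divided by the mean reads per tile of all 1327469 tiles of the same library, so that 1 is the genome mean. A change is the log2 of the ratio of the share of reads in the Dicer KO/Dnmt1 cKO to that in the Dicer KO, and it is relative to each library's total. ChIP cannot tell fewer marked cells from less mark per cell. With 1 library per genotype, less mark also cannot be told apart from a weaker pull-down in that library. Histone marks do not show whether a gene is deleted, and over Dnmt1 itself H3K27me3 stood at 0.263 and 0.320. Of the pluripotency genes listed as markers of the cell type, Pou5f1, Nanog and Sox2 had H3K27me3 levels of 0.717, 0.381 and 0.318 in the Dicer KO. The highest of the 8 pluripotency genes found was Dppa3 at 3.57, and 4 of the 8 had a level of at most 0.5. So did 9381 of all 22238 protein-coding genes, whose median was 0.67. Of 10 genes of feeder fibroblasts, 1 had a level of at most 0.5, and Thy1 was the highest at 4.59. These levels do not measure expression, so neither the cell type nor the share of feeder cells was tested.

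H3K27me3 stood far above the genome mean over the Hox genes in both genotypes. The 167 tiles of the 38 genes had a level of 5.23 in the Dicer KO (5.15 to 5.31) and 3.86 in the Dicer KO/Dnmt1 cKO (3.79 to 3.94). In the Dicer KO 25 of the 38 genes had a level of at least 4, against 2.25% of all protein-coding genes, and in the Dicer KO/Dnmt1 cKO 19 did, against 1.2%. The interval of the level lay above 1 in 37 genes of the former library and 36 of the latter. The median Hox gene had a level of 5.77 and 4.08, while the median of all protein-coding genes was 0.67 and 0.70. Hox tiles were rich in G and C (50.5% on average), and the H3K27me3 libraries held more reads in such tiles across the genome. Against tiles of the same GC content, the level of the Hox tiles was 3.54 and 2.82.

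HoxA carried the least H3K27me3, with a level of 3.27 in the Dicer KO (3.16 to 3.39), while HoxB had 6.27 (6.10 to 6.45), HoxC 5.96 (5.80 to 6.12) and HoxD 5.68 (5.52 to 5.85). It was also the lowest in the Dicer KO/Dnmt1 cKO, at 2.33 (2.22 to 2.45), against 4.75, 4.41 and 4.16. The HoxA interval did not touch those of the other clusters in either library. Over whole spans, which add the tiles between genes, HoxB stood at 3.92 in the Dicer KO, below HoxC at 5.99 and HoxD at 5.58 and above HoxA at 3.31. The intervals of HoxB and HoxC over the genes overlapped slightly in the Dicer KO, so their order is not settled. Against tiles of the same GC content HoxA stood at 2.25 and the other clusters at 3.93 to 4.09 in the Dicer KO.

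**Figure D1:**
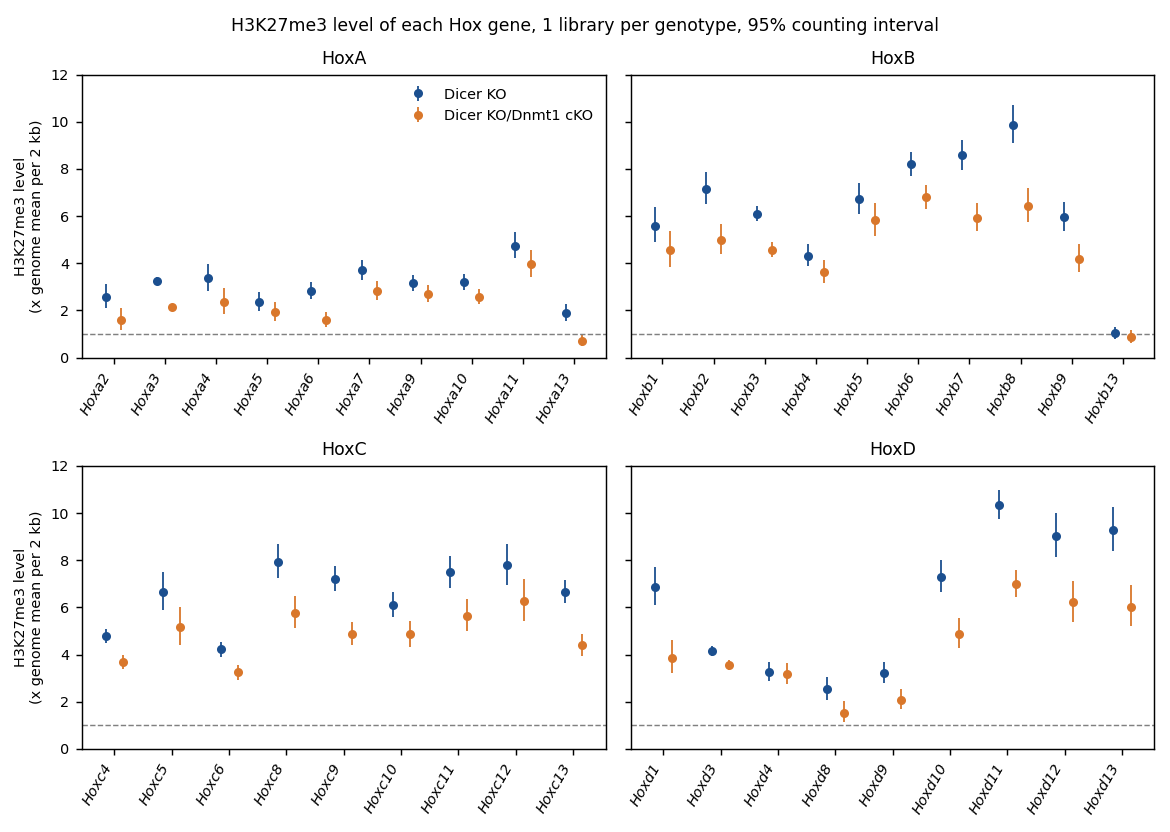
H3K27me3 level of each Hox gene (reads per 2 kb tile over the genome mean, vertical axis) in the Dicer KO (blue) and the Dicer KO/Dnmt1 cKO (orange), 1 library each, with 95% counting intervals; the dashed line is the genome mean. HoxA genes lie between 1.89 and 4.74 in the Dicer KO, and in the other clusters Hoxb4, Hoxc6, Hoxd3, Hoxd4, Hoxd8 and Hoxd9 lie within that range, Hoxb13 lies under it at 1.03 and the others lie above 4.74.

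Within HoxA, levels in the Dicer KO ran from 1.89 at Hoxa13 (1.56 to 2.27) to 4.74 at Hoxa11 (4.21 to 5.32). Hoxa13 shapes the digits and hindgut, and Hoxa11 the forearm and kidney. In the Dicer KO/Dnmt1 cKO they stood at 0.71 and 3.97, and Hoxa13 was the only one of the 38 genes whose interval lay below the genome mean (0.49 to 0.99). In the middle of the cluster, Hoxa5, which patterns the airways, had 2.36 and 1.91, Hoxa6 had 2.83 and 1.59, Hoxa7 had 3.71 and 2.82, Hoxa9, a regulator of blood progenitors, had 3.16 and 2.69, and Hoxa10, known from the uterus and lumbar spine, had 3.19 and 2.57. At the 3′ end Hoxa2, which sets hindbrain and branchial arch identity, had 2.57 and 1.59, and Hoxa4 had 3.37 and 2.34. Hoxa3, needed for the thymus and parathyroid, had 3.26 and 2.14 over 26 tiles, but its annotated bounds run across Hoxa4, Hoxa5 and Hoxa6 and reach Hoxa2, so these genes share tiles. The highest HoxA tile in the Dicer KO, at chr6:52116001-52118000 within Hoxa3, reached 7.28 and 3.81 in the same order of genotypes.

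Within HoxB, Hoxb13 stood apart from the 9 other genes, which all had levels above 3 times the genome mean. Hoxb13, a gene of the tail and prostate, had a level of 1.03 in the Dicer KO (0.79 to 1.31) and 0.85 in the Dicer KO/Dnmt1 cKO (0.61 to 1.16). The 36 tiles between Hoxb13 and Hoxb9 stood at 1.00 and 1.01, the genome mean. The level was 5.95 and 4.18 over Hoxb9, a gene of rib patterning, and in the Dicer KO it was highest over Hoxb8, at 9.87 (9.10 to 10.7), a gene with 6.43 (5.73 to 7.18) in the Dicer KO/Dnmt1 cKO. Hoxb7, which shares a tile with Hoxb8, had 8.58 and 5.93, Hoxb6, the highest of the cluster in the Dicer KO/Dnmt1 cKO, had 8.21 and 6.79, and Hoxb5 had 6.71 and 5.82. Hoxb4, known from blood stem cells, was the lowest of these genes at 4.33 and 3.63. Hoxb3 had 6.09 and 4.58, Hoxb2 had 7.15 and 4.99, and Hoxb1, which sets the identity of a hindbrain segment, had 5.60 and 4.55. Without Hoxb13 the HoxB level was 6.70 and 5.07.

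HoxC held no gene near the genome mean, and all 9 lay between 4.22 and 7.93 in the Dicer KO. Hoxc8, a gene of thoracic and brachial identity, had 7.93 (7.24 to 8.67) in the Dicer KO and 5.78 after deletion of Dnmt1, Hoxc12 had 7.80 and 6.27, Hoxc11 at 7.48 and 5.63, and Hoxc9 at 7.19 and 4.85. The intervals of Hoxc8, Hoxc12, Hoxc11 and Hoxc9 overlapped, so their order is not settled. Hoxc13, needed for hair and nails, had 6.66 and 4.40, Hoxc5 had 6.67 and 5.15, and Hoxc10 had 6.11 and 4.85. The 3′ gene Hoxc4 had 4.77 and 3.66. Hoxc6 was the lowest at 4.22 and 3.24, and it held the poorest tile of the HoxC span at 1.66 and 1.31, a tile with a Hoxc6 start site.

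HoxD was rich at both ends and poorer in the middle. Its 5′ genes, which shape digits, forearm and genitalia, included the highest of all Hox genes. Hoxd11 had a level of 10.4 in the Dicer KO (9.74 to 11.0) and 7.00 in the Dicer KO/Dnmt1 cKO (6.43 to 7.60). Hoxd13 had 9.29 and 6.02, Hoxd12 had 9.02 and 6.21, and Hoxd10, known from lumbar motor neurons, had 7.30 and 4.87. The highest tile of all 4 spans in the Dicer KO lay at the Hoxd11 start site, chr2:74520001-74522000, at 13.0 and 7.55. In the middle of the cluster, Hoxd9 stood at 3.21 and 2.08, Hoxd8 at 2.52 and 1.53, and Hoxd4 at 3.27 and 3.18. Hoxd3, which overlaps Hoxd4, had 4.14 and 3.57, and Hoxd1, at the 3′ end, had 6.87 and 3.87.

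**Figure D2:**
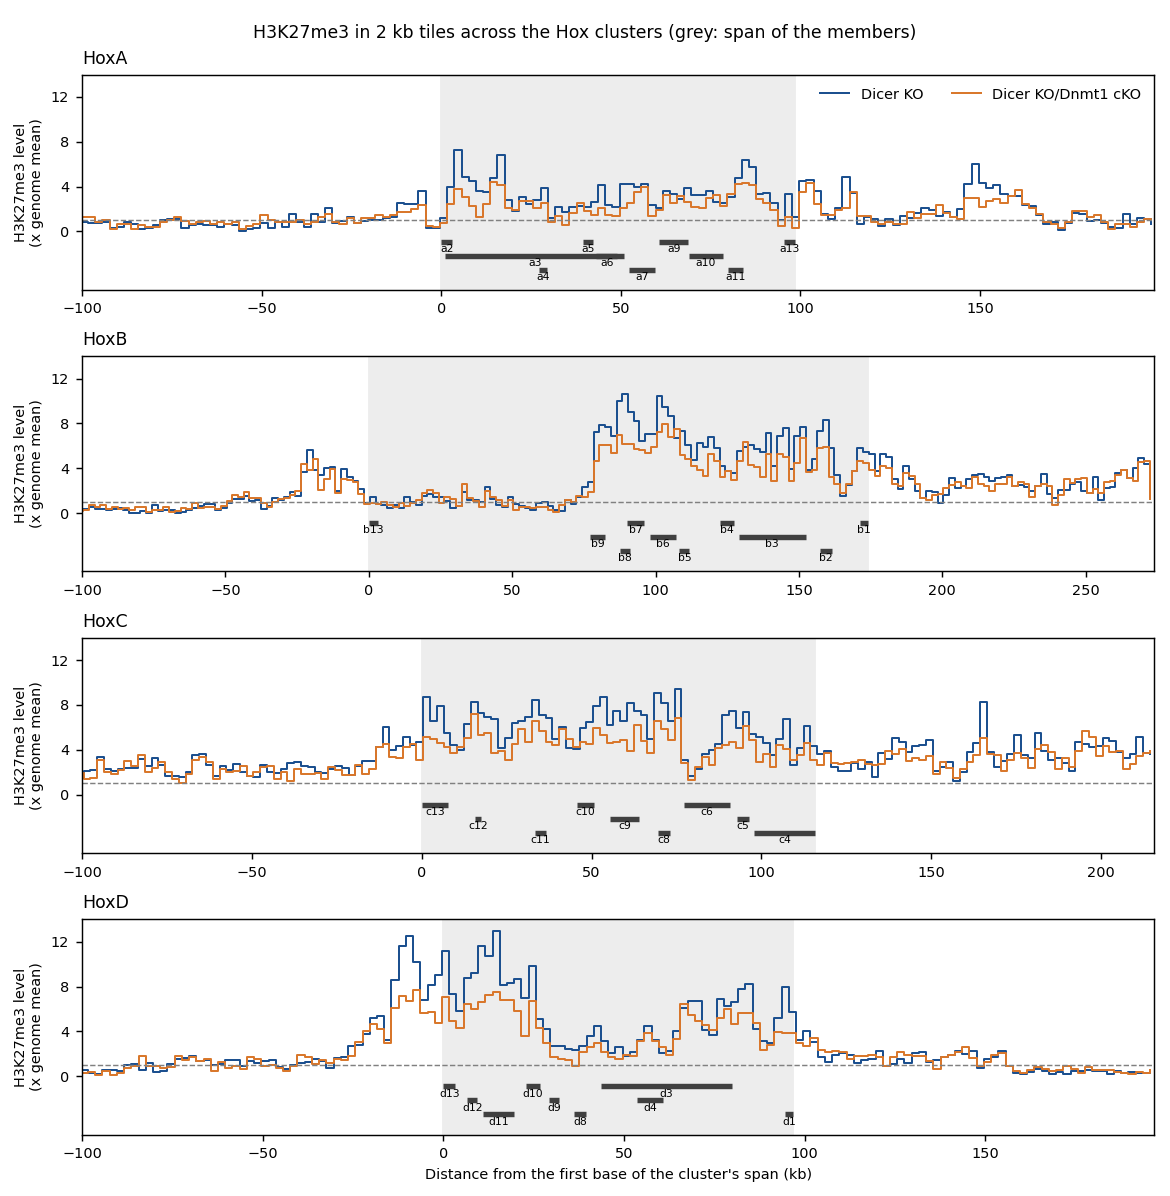
H3K27me3 level in each 2 kb tile (vertical axis, reads over the genome mean) along each cluster and 100 kb to either side, by distance from the first base of the span in kb (horizontal axis); grey shading marks the span, bars below mark the genes, and lines are the Dicer KO (blue) and the Dicer KO/Dnmt1 cKO (orange). The Dicer KO is higher in 203 of the 246 tiles of the spans, and the stretch from Hoxb13 to Hoxb9 lies near the dashed genome mean.

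Tiles rich in one genotype were mostly rich in the other. Across 246 tiles the H3K27me3 levels of the libraries had a Pearson r of 0.93 and a Spearman rho of 0.94, a description only, since neighbouring tiles share fragments and both libraries share base composition. Within clusters r was 0.79 in HoxA, 0.96 in HoxB, 0.82 in HoxC and 0.91 in HoxD. Runs of tiles at 4 or more times the genome mean, allowing gaps of up to 2 tiles, were shorter in the Dicer KO/Dnmt1 cKO. The longest run was 14 and 6 kb in HoxA, 84 and 44 kb in HoxB, 90 and 50 kb in HoxC, and 50 and 48 kb in HoxD, the Dicer KO given before the Dicer KO/Dnmt1 cKO. In HoxA these were different places, chr6:52116001-52130000 in the Dicer KO and chr6:52194001-52200000 in the Dicer KO/Dnmt1 cKO. Of the tiles in each span, 26% and 10% passed in HoxA, 45.5% and 37.5% in HoxB, 89.8% and 69.5% in HoxC, and 63.3% and 49.0% in HoxD. These lengths depend on the threshold. Each threshold was the same for both libraries, although the Hox tiles stood at 5.23 in the Dicer KO and at 3.86 after deletion of Dnmt1. Shorter runs and fewer passing tiles can follow from this gap in level alone, so they are no separate result. Whether the extent of the domains changed apart from their level was not tested. At 2 times the mean the longest runs were 114 and 54 kb in HoxA, 122 and 114 kb in HoxB, 298 and 256 kb in HoxC, and 130 and 58 kb in HoxD. The HoxC run was then longer than the 9 genes it covered, and the 100 kb before and after HoxC stood at 2.65 and 3.64 in the Dicer KO. At the same threshold the HoxD run of the Dicer KO, chr2:74480001-74610000, covered all 9 genes. In the Dicer KO/Dnmt1 cKO there were 3 HoxD runs, and the longest, chr2:74560001-74618000, covered only Hoxd1 and Hoxd4.

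Start sites and the rest of the genes had nearly the same level. The 55 tiles with a start site had an H3K27me3 level of 5.37 in the Dicer KO (5.23 to 5.51) and the 112 other tiles 5.16 (5.07 to 5.25), and in the Dicer KO/Dnmt1 cKO they had 3.90 and 3.84. In HoxD the start-site tiles were richer in the Dicer KO, at 6.41 against 5.27 for the other tiles, and in HoxC slightly poorer, at 5.62 against 6.09. In 20 of the 38 genes the start-site tiles lay above the gene as a whole. Among the genes with lower start sites was Hoxb9, whose start-site tile had a level of 2.79 in the Dicer KO against 5.95 over the gene.

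Paralogs stood at different levels. In the 13th group, which marks the tail end of the body, Hoxd13 had 9.29, Hoxc13 6.66, Hoxa13 1.89 and Hoxb13 1.03 in the Dicer KO. The 8th group ran from 2.52 at Hoxd8 to 9.87 at Hoxb8, and the 11th from 4.74 at Hoxa11 to 10.4 at Hoxd11. The 4th group was the closest of those with 4 members, at 3.27 to 4.77.

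The share of H3K27me3 reads was lower in the Dicer KO/Dnmt1 cKO over all 38 Hox genes. Less mark and a weaker pull-down in this library cannot be told apart. Over their tiles together the change was -0.44 on the log2 scale (-0.47 to -0.40), from 17867 and 10342 reads. The interval of the change lay wholly below 0 in 31 of 38 genes, all of which had at least 50 reads, against 10.1% of the 18492 protein-coding genes with as many reads, and wholly above 0 in 0 of 38, against 18.7%. The 7 others were Hoxa5, Hoxa9, Hoxa11, Hoxb1, Hoxb5, Hoxb13 and Hoxd4. The median change was -0.43 for the Hox genes and 0.07 for all protein-coding genes. The latter had a median level of only 0.67 in the Dicer KO, against 5.77 for the Hox genes, and genes of like level are compared below. No Hox gene with at least 200 reads was 2-fold apart (0 of 34), and few genes were (0.146%). At 1.5-fold 7 of the 34 passed, all lower, against 3.53% of all genes in either direction.

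Among genes with at least 200 reads over both libraries, Hoxa6 and Hoxd1 had the lowest changes. Hoxa6 had 232 reads before and 102 after deletion of Dnmt1, a change of -0.83 (-1.18 to -0.49). Hoxd1 had 281 and 124 reads, also -0.83 (-1.14 to -0.52). Hoxd9 had 197 and 100 reads and a change of -0.63 (-0.99 to -0.27). The changes nearest to 0 were -0.04 at Hoxd4 (-0.31 to 0.23), -0.21 at Hoxb5 (-0.43 to 0.02) and -0.22 at Hoxd3 (-0.32 to -0.11), from 268 and 204, 412 and 280, and 1695 and 1144 reads. Hoxa13, with 116 and 34 reads, had the lowest value of all 38 at -1.42 (-2.02 to -0.86). The intervals of Hoxa6 and Hoxd1 do not meet those of Hoxd4, Hoxb5 and Hoxd3, but these genes were picked as extremes of the same values. The gap is thus no test of a difference between genes.

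**Figure D3:**
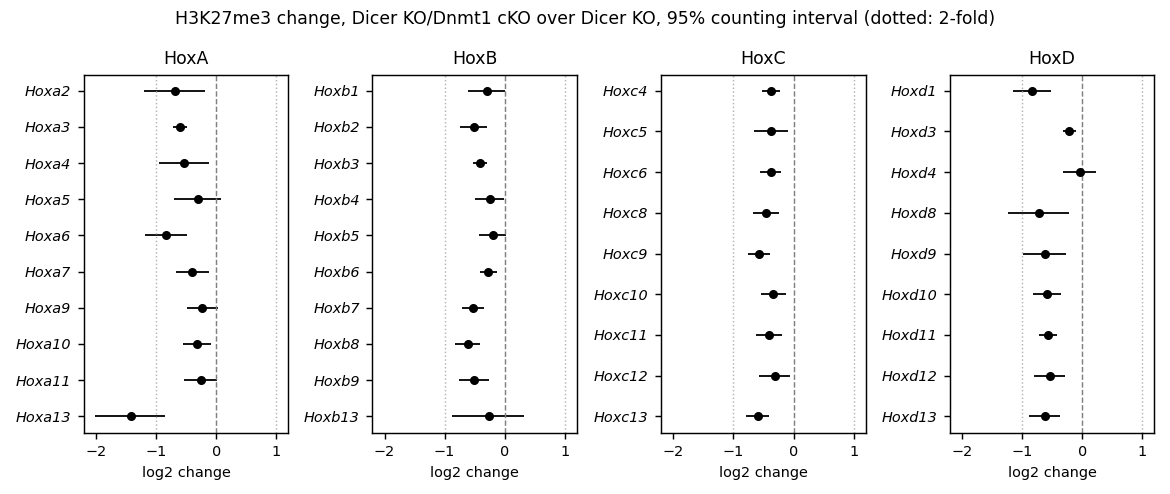
Change of H3K27me3 (log2 of the Dicer KO/Dnmt1 cKO share of reads over the Dicer KO share, horizontal axis) for each Hox gene, with 95% counting intervals; the dashed line marks no change and dotted lines 2-fold. All 38 points lie to the left of 0, from -1.42 at Hoxa13 to -0.04 at Hoxd4.

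No difference in change between the clusters was detectable at this depth. The changes were -0.49 for HoxA, -0.40 for HoxB, -0.43 for HoxC and -0.45 for HoxD, and the interval of each of the 6 differences between them included 0. The largest, HoxA minus HoxB, was -0.09 (-0.19 to 0.02). The tiles between Hoxb13 and Hoxb9, at the genome mean, had a change of 0.01 (-0.14 to 0.17).

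The GC content of the tiles moved with this result, since the Dicer KO library held more H3K27me3 reads in GC-rich tiles than the Dicer KO/Dnmt1 cKO library. Tiles with 60 to 70% GC stood at 2.66 and 1.76 across the genome, against 1.02 and 1.03 for tiles with 40 to 45%. With the reads expected from tiles of the same GC content the Hox change was -0.33 (-0.36 to -0.29). On that scale 37 of 38 genes were lower, and Hoxd4 stood at 0.06. The interval lay below 0 in 25 genes, against 7.25% of all genes, and above 0 in 0, against 21.0%. This alternative was chosen after seeing the data.

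Other genes rich in H3K27me3 were also lower in the Dicer KO/Dnmt1 cKO. Among protein-coding genes with a mean level of 4 to 6 over both libraries, the median change was -0.38 in 9 Hox genes and -0.43 in 265 others, and above 6 it was -0.53 in 13 Hox genes and -0.50 in 99 others. At 2 to 4 it was -0.39 in 14 Hox genes and -0.12 in 2194 others. Below 0.5, where no Hox gene lay, the median of 6258 genes was 0.30. The interval lay wholly below 0 in 77.8% of the Hox genes and 81.1% of the others at 4 to 6. Above 6 these shares were 92.3% and 73.7%, and at 2 to 4 they were 78.6% and 32.7%. Each gene's own reads set both its level and its change, so these medians and shares are descriptions. The 45 transcription factors of neural patterning had a change of -0.30 over their tiles, and the Hox change minus this was -0.14 (-0.18 to -0.10). For the 31 factors of mesoderm and endoderm it was -0.25, and the difference was -0.19 (-0.23 to -0.14). The difference pools tiles, so that long genes weigh more. The medians per gene lay closer together, at -0.43 for the Hox genes, -0.40 for the neural factors and -0.37 for the mesoderm and endoderm factors. Over their tiles together these lists had lower levels than the Hox genes, at 3.75 and 2.86 in the Dicer KO against 5.23. The median levels per gene lay closer, at 5.24 and 4.32 against 5.77. The interval lay wholly below 0 in 36 of the 45 neural factors and 19 of the 31 mesoderm and endoderm factors. Among all protein-coding genes with at least 50 reads the share was 10.1%.

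**Figure D4:**
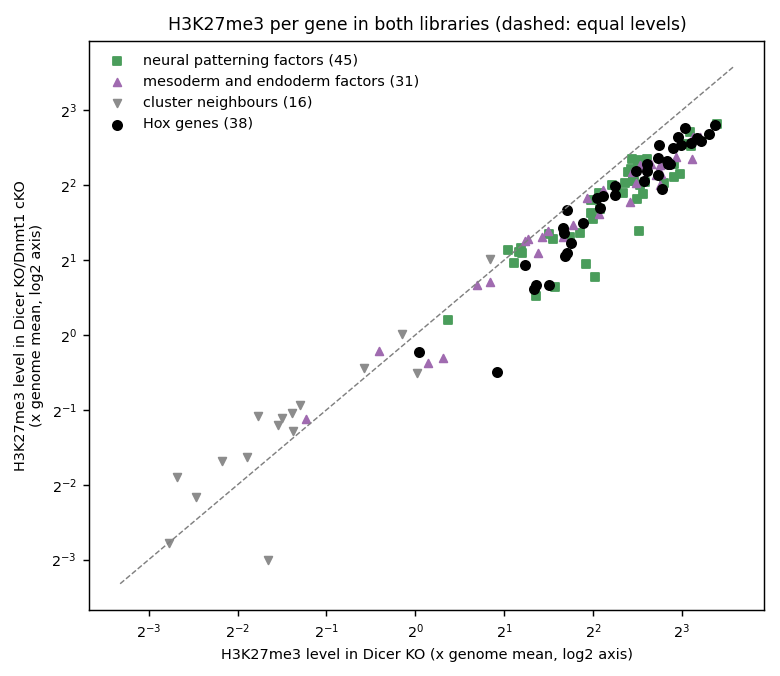
H3K27me3 level per gene in the Dicer KO (horizontal axis) and the Dicer KO/Dnmt1 cKO (vertical axis), both over the genome mean on log2 axes, for the 38 Hox genes (black), 45 neural patterning factors, 31 mesoderm and endoderm factors and 16 neighbours of the clusters; the dashed line marks equal levels. All Hox genes lie under the line, and 13 of the 14 neighbours with at least 50 reads lie above it.

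H3K9me2 was low over the Hox genes. The Hox tiles had a level of 0.44 in the Dicer KO (0.41 to 0.47) and 0.47 in the Dicer KO/Dnmt1 cKO (0.45 to 0.50). The level was at most 0.5 in 30 of 38 genes in the Dicer KO, against 29.8% of all protein-coding genes, and in 29 in the Dicer KO/Dnmt1 cKO, against 22.0%. The lowest in the Dicer KO were Hoxd8 at 0.08 and 0.16 (2 and 5 reads), Hoxd13 at 0.12 and 0.19 (3 and 6 reads) and Hoxb8 at 0.13 and 0.35 (5 and 16 reads). In the Dicer KO/Dnmt1 cKO Hoxa9 at 0.117 and Hoxa13 at 0.151 were lower. The highest in the Dicer KO was Hoxb1 at 0.99 and 1.52, followed by Hoxd12 at 0.71 in both and Hoxd3 at 0.69 and 0.76. HoxA was the lowest cluster at 0.29 and 0.30, and HoxB, HoxC and HoxD stood at 0.48 to 0.51 in the Dicer KO. Across the genome, H3K9me2 reads were also few in GC-rich tiles, at 0.24 of the mean in the Dicer KO for tiles of 60 to 70% GC. Against tiles of the same GC content the Hox level was 0.51 and 0.52.

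The change of H3K9me2 depended on the tiles counted. Over all tiles of the Hox genes it was 0.11 (-0.01 to 0.24), an interval that includes 0, and over the whole spans, with the tiles between genes, it was 0.20 (0.11 to 0.30). Only 4 members (Hoxa3, Hoxb3, Hoxc4 and Hoxd3) had at least 200 reads, with 0 of 4 at 2-fold, against 0.00974% of all genes. Among them Hoxb3 had the smallest value at -0.07 and Hoxc4 the largest at 0.27. Of the 11 members with at least 50 reads, the interval lay below 0 in 0, against 3.07%, and above 0 in 0, against 16.9%. In the tiles with a start site the change was 0.36 (0.12 to 0.61), from 225 and 352 reads, and in the other tiles it was 0.02 (-0.12 to 0.17). The start-site tiles averaged 54.3% GC, and tiles of 50 to 55% GC across the genome stood at 0.84 and 0.93. Against tiles of the same GC content the H3K9me2 change over all Hox tiles was 0.03 (-0.10 to 0.15). For start-site tiles alone that change was not computed. Between Hoxb13 and Hoxb9 the change of H3K9me2 was 0.33 (0.07 to 0.60), over the whole HoxB span it was 0.25 (0.09 to 0.42), and over the whole HoxD span 0.21 (0.01 to 0.42). Over the whole HoxA and HoxC spans it was 0.10 (-0.18 to 0.38) and 0.18 (-0.01 to 0.37), intervals that include 0. The median of all protein-coding genes with at least 50 reads was 0.11.

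H3K9me3 was also below the genome mean, at 0.63 (0.59 to 0.66) in the Dicer KO and 0.63 (0.60 to 0.67) in the Dicer KO/Dnmt1 cKO. The level was at most 0.5 in 7 genes, against 15.1% of all genes, and in 11, against 15.5%. Hoxb3 was the highest in the Dicer KO at 0.96 and had 0.88 in the Dicer KO/Dnmt1 cKO, Hoxd12 had 0.91 and 0.56, and Hoxb1 had 0.88 and 1.58. Hoxd13 was the lowest in the Dicer KO at 0.15 (4 reads) and had 0.56 (16 reads) in the Dicer KO/Dnmt1 cKO, Hoxa13 had 0.19 and 0.33, and Hoxa6 had 0.22 and 0.51. The tile with the most H3K9me3 of all 4 spans in the Dicer KO lay within Hoxb3 at 2.49 and 1.68, and it was also the HoxB tile with the most H3K9me2.

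The change of H3K9me3 over the Hox tiles was 0.02 (-0.09 to 0.13). In the tiles with a start site it was 0.20 (0.02 to 0.39), from 431 and 518 reads, while in the other tiles it was -0.07 (-0.20 to 0.06). By cluster, the start-site tiles of HoxD had 0.45 (0.09 to 0.81). Those of HoxA had 0.14 (-0.26 to 0.54), HoxB 0.17 (-0.20 to 0.54) and HoxC -0.004 (-0.41 to 0.41), intervals that include 0. Against tiles of the same GC content the change over all Hox tiles was -0.03 (-0.13 to 0.08). With at least 200 reads 0 of 4 members were 2-fold apart, against 0.0384% of all genes, and their values ran from -0.14 at Hoxb3 to 0.11 at Hoxd3. With at least 50 reads the interval lay below 0 in 0 of 20 members, against 3.29%, and above 0 in 2 of 20, against 6.95%. These were Hoxa9, with 23 and 44 reads and a change of 0.88, and Hoxb1, with 24 and 45 reads and a change of 0.85. The share of 2 in 20 is near the background. Hoxb1 was the only Hox gene above the genome mean beyond counting error for H3K9me2 (1.12 to 2.03) and H3K9me3 (1.15 to 2.11), in the Dicer KO/Dnmt1 cKO and over 2 tiles only.

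**Figure D5:**
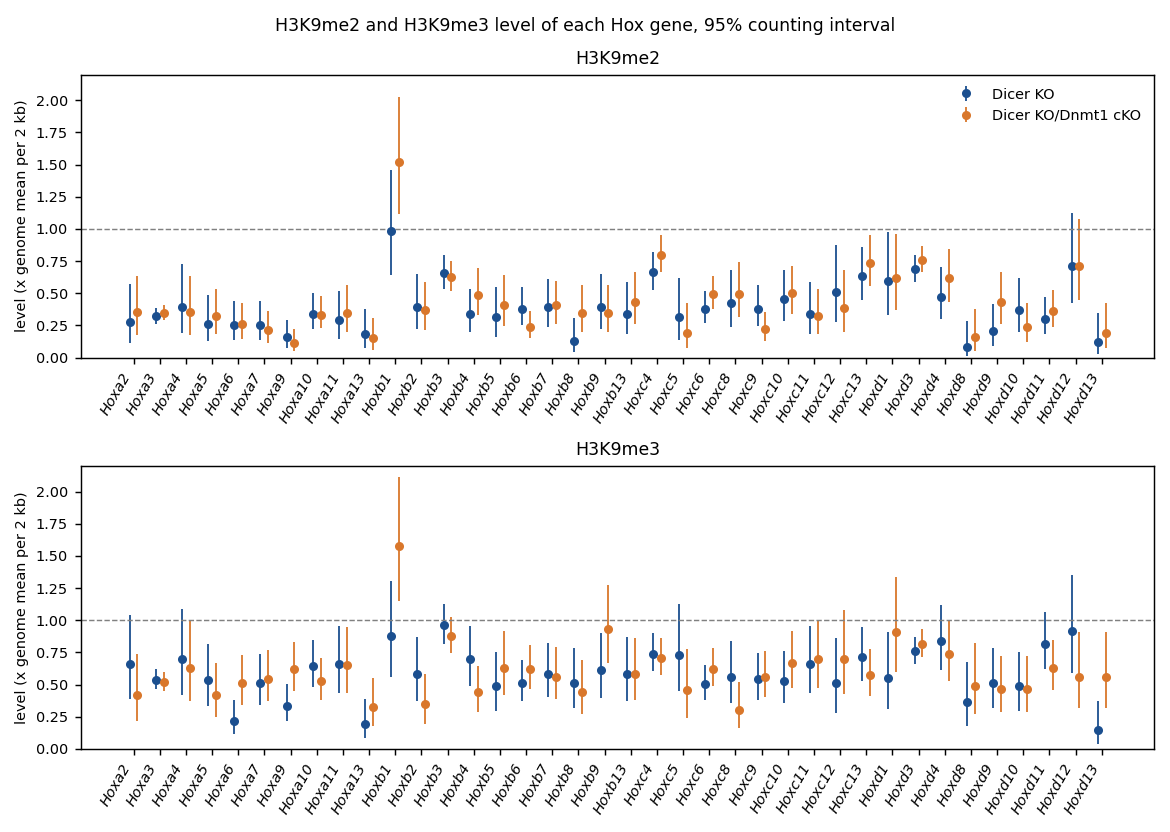
H3K9me2 (top) and H3K9me3 (bottom) level of each Hox gene, as reads per 2 kb tile over the genome mean (vertical axis), in the Dicer KO (blue) and the Dicer KO/Dnmt1 cKO (orange) with 95% counting intervals; the dashed line is the genome mean. Nearly all points lie under the line in both libraries, and Hoxb1 in the Dicer KO/Dnmt1 cKO lies above it at 1.52 and 1.58.

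Over 246 tiles in the Dicer KO the Pearson r was 0.09 between H3K27me3 and H3K9me2, 0.05 between H3K27me3 and H3K9me3, and 0.43 between H3K9me2 and H3K9me3. In the Dicer KO/Dnmt1 cKO these were 0.09, 0.14 and 0.52. Within HoxA the value for H3K27me3 and H3K9me3 was 0.02 in the Dicer KO, against 0.48 in the Dicer KO/Dnmt1 cKO. The other clusters showed less of a gap, with -0.03 and 0.07 in HoxB, 0.05 and -0.04 in HoxC, and 0.07 and 0.19 in HoxD. These are descriptions over tiles that share base composition and mappability, with few reads for the H3K9 marks.

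Genes that work with or around the Hox genes differed in their marks. For the counts that follow, the interval of the H3K27me3 change lay below 0 in 10.1% of all protein-coding genes with at least 50 reads. It lay above 0 in 18.7%. The ParaHox and Evx genes, the closest relatives of the Hox genes, had an H3K27me3 level of 4.37 and 3.15 (Dicer KO given first), a change of -0.47 (-0.56 to -0.39), with the interval below 0 in 6 of 8 genes. Evx2, next to Hoxd13, had 8.99 and 5.74, and Cdx4, on the X chromosome, was the lowest at 1.17 and 0.97. The 9 TALE cofactors, which bind DNA together with HOX proteins, stood at 1.03 and 1.06, with 1 interval below 0 and 2 above 0, and Meis3 was the highest at 1.94 and 1.66, while Pknox1 was the lowest in the Dicer KO at 0.26 and Pbx4 in the Dicer KO/Dnmt1 cKO at 0.351. Of the 10 upstream signals, the interval was below 0 in 7 and above 0 in 1, and the levels ran from Rara, a retinoic acid receptor, at 0.37 and 0.47 to Fgf8 at 7.25 and 5.54. The 21 Polycomb subunits stood at 0.48 and 0.51. Of the 17 with at least 50 reads, 3 had intervals below 0 and 7 above 0. Bmi1, a subunit of PRC1, was the richest in the Dicer KO at 4.55 and had 2.79 in the Dicer KO/Dnmt1 cKO, where Cbx8 was above it at 3.07, and Rbbp7 was the poorest at 0.10 and 0.11. The 8 Trithorax and H3K27 demethylase genes stood at 0.21 and 0.26, with 0 below and 1 above. Of the 16 neighbours outside the clusters, 14 had at least 50 reads, and the interval was above 0 in 8 and below 0 in 0. They stood at 0.80 and 0.93 together. Skap1 was the highest at 1.79 and 2.03, Hnrnpa1 was the lowest in the Dicer KO at 0.147, and Atp5g3 was the lowest in the Dicer KO/Dnmt1 cKO at 0.125.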

How the data were processed

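ChIP-seq of 3 histone marks in mouse ESCs of 2 genotypes was analysed, 6 libraries in all. Trimming by Trim Galore and mapping by Bowtie2 to NCBIM37, without low mapping qualities, are stated in the methods. What the authors deposited are log2 ratios of the reads of a tile to those expected. The tiles are 2 kb, although the methods state 1 kb. Of 25 value columns, the 6 that match the labels entered, and 19 did not.

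Steps between the deposited values gave back whole reads, within 0.1 read for all but 1 value in the 6 libraries. Gene bounds came from GENCODE on NCBIM37, and every tile overlapping a gene was counted. Intervals are exact Poisson intervals for levels, Clopper-Pearson intervals for changes, and a normal approximation for differences between sets. Only those for changes were checked, on H3K27me3 counts simulated as Poisson, which is what they assume. All cover counting error only and treat reads as independent. PCR copies are not independent molecules, so the intervals may be too narrow. Python 3.11.15, pandas 2.3.3 and scipy 1.17.1 were used. Every Hox gene may be named. Values in full were given for the 3 highest and 3 lowest levels per mark and the 3 largest and 3 smallest changes with at least 200 reads, and examples of other lists are their highest and lowest levels. The Hox genes, gene lists and alternatives were chosen with earlier results of these data known.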

Additional observations from a re-analysis of the deposited data

How the results depend on the processing

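No paired analysis was possible because every comparison set a lone library against another, which also left no replicate to leave out. Of 101 alternative values 61 stayed within counting error or, for counts and lengths, within 1.5 times, and 40 did not. The change of H3K27me3 was below 0 in every alternative, from -0.46 in start-site tiles to -0.33 with the same GC content. The sign of the H3K9me3 change was not settled, since its main interval included 0 (0.02, -0.09 to 0.13). It was -0.02 in tiles wholly inside a gene, -0.03 as the median per gene and -0.03 with the same GC content. Depth limited the H3K9 marks, with a median of 32.5 reads per Hox gene for H3K9me2 and 56 for H3K9me3 over both libraries.

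The levels depended on the tiles and the reference. In the order Dicer KO and Dicer KO/Dnmt1 cKO, H3K27me3 was 3.54 and 2.82 against tiles of the same GC content, 5.94 and 4.42 against the median tile, 4.99 and 3.70 in tiles wholly inside a gene, 4.62 and 3.49 over whole spans, and 5.53 and 4.07 without Hoxa3 and Hoxd3. In start-site tiles it was 5.37 in the Dicer KO. H3K9me2 was 0.510 and 0.519 against the same GC content, 0.323 and 0.414 in start-site tiles, 0.483 and 0.502 in tiles wholly inside a gene, and 0.533 over whole spans in the Dicer KO/Dnmt1 cKO. H3K9me3 in the Dicer KO was 0.672 against the same GC content, 0.573 in start-site tiles and 0.662 in tiles wholly inside a gene, and in the Dicer KO/Dnmt1 cKO it was 0.696 against the median tile.

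The change of H3K27me3 was -0.33 with the same GC content. In start-site tiles the change of H3K9me2 was 0.36 and that of H3K9me3 0.20 (0.02 to 0.39), and over whole spans that of H3K9me2 was 0.20 (0.11 to 0.30). In all these cases the cause was not tested. The alternatives with the same GC content for a change, without Hoxb13 and without Hoxa3 and Hoxd3 were chosen after seeing the data.

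At 1.5-fold 7 Hox genes passed for H3K27me3. With at least 50 reads or no read minimum 1 passed, Hoxa13, against 0.806% and 3.20% of all genes. With no read minimum 3 passed for H3K9me2 (Hoxb8, Hoxd8 and Hoxd9), against 3.23%, and 2 for H3K9me3 (Hoxa6 and Hoxd13), against 2.05%.

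The longest H3K27me3 run at 2 times the mean was 114 kb in HoxA, 298 kb in HoxC and 130 kb in HoxD in the Dicer KO, and 54 kb in HoxA, 114 kb in HoxB and 256 kb in HoxC in the Dicer KO/Dnmt1 cKO. At 8 times it was 8 kb in HoxB and in HoxC and 40 kb in HoxD in the Dicer KO, and HoxA there and every cluster in the Dicer KO/Dnmt1 cKO had no such run. With no gap allowed it was 8 kb in HoxA and 46 kb in HoxB in the Dicer KO.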
